A study of Mus musculus with 6 samples.

Results

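The genes described here encode the surrogate light chain and the signalling chains of the pre-B cell receptor, namely Igll1 (λ5), Vpreb1, Vpreb2, Vpreb3, Cd79a (Igα) and Cd79b (Igβ). They were chosen by symbol, all 6 were found among the 37991 identifiers of the count files, and all 6 passed the filter on low counts with 16683 genes in all. Expression was measured by sequencing polyadenylated RNA of pre-B cells sorted from mouse bone marrow, in 2 libraries of each of 3 stages. Wild type cells came from C57BL/6 mice 4 to 6 weeks old. Premalignant cells came from E{mu}Myc/+ mice of the same age and background, and malignant cells from E{mu}Myc/+ mice 10 to 20 weeks old with established spontaneous lymphoma. The transgene is heterozygous and places Myc under the enhancer of the immunoglobulin heavy chain locus, so that it acts in B-lineage cells. Per the study's methods each library is from an individual animal. Wild type and premalignant mice were female, malignant mice were of both sexes, and a lymphoma can be the expansion of a single clone. Cells were sorted as B220-high, IgM-low and IgD-low, and the methods give B220-positive, IgM-negative and IgD-negative for the malignant sort. Age and sort therefore differ between malignant mice and those of both other stages, and sex may differ as well. These cannot be told apart from the stage.

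The surrogate light chain stands in for the immunoglobulin light chain before a light chain gene has been rearranged. λ5 and VpreB pair with the first μ heavy chain of the cell, and the complex is carried to the surface with Igα and Igβ, whose cytoplasmic motifs recruit kinases. Signals of this pre-B receptor drive a burst of division of large pre-B cells, after which the surrogate light chain genes are normally turned off while Cd79a and Cd79b stay on for the life of the B cell.

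Igll1, Vpreb1 and Vpreb2 all lie on chromosome 16 of NCBIM37 (mm9). Igll1 spans chr16:16860764-16864078 on the minus strand and Vpreb1 spans chr16:16868495-16870936 on the same strand, 4416 bp away. Vpreb2 lies at chr16:17980514-17981366 on the plus strand, 1109577 bp from Vpreb1. Vpreb3 (chr10:75405802-75412402, plus strand), Cd79a (chr7:25682400-25687216, plus strand) and Cd79b (chr11:106172655-106176076, minus strand) are on chromosomes of their own. The 5′ end of Vpreb1 overlaps Top3b, a topoisomerase gene on the opposite strand, and a pseudogene, Gm16221, lies within Vpreb3 on the opposite strand. The strand setting of the counting is not given in the sources used here, so reads in these overlaps may not be told apart. Top3b held 5257 and 3869 counts in wild type libraries 1 and 2, and Gm16221 held 107 and 40.

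Vpreb1 and Vpreb2 are close copies, and the sequences below are shown because they set how far 50-base reads can separate the 2 genes. Over 576 aligned bases of their last exons they had 14 differences, an identity of 97.6%, and the longest identical run was 196 bases. The stretches are from NCBIM37, chr16:16868773-16868862 on the minus strand for Vpreb1 and chr16:17981000-17981089 on the plus strand for Vpreb2, and capitals mark the 2 bases at which these 90 bases differ.
Vpreb1, last exon: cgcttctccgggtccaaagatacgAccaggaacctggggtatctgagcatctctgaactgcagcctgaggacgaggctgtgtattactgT
Vpreb2, last exon: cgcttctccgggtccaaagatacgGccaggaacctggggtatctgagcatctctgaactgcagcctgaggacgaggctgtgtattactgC
Of all 50-base windows in the exons, 71.5% of those of Vpreb1 and 65.1% of those of Vpreb2 occurred once in the genome, and 25.4% and 34.9% occurred in both genes. The split of reads between Vpreb1 and Vpreb2 is therefore uncertain. Igll1 and Cd79b had windows that all occurred once (100% each), Vpreb3 had 96.8%, and Cd79a had 72.7%, the other 331 of its windows also occurring on chromosome 12.

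The likeness of Vpreb1 and Vpreb2 extended into their promoters. In the RefSeq promoter sequences (GRCm38.p6), 106 bases that end at the start of Vpreb1 (chr16:16869256-16869361, minus strand) matched 106 bases of the Vpreb2 promoter (chr16:17980315-17980420, plus strand) with 2 differences, an identity of 98.1%. Capitals mark the differing bases.
Vpreb1, promoter: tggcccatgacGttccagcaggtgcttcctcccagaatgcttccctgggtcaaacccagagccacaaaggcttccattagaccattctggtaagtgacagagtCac
Vpreb2, promoter: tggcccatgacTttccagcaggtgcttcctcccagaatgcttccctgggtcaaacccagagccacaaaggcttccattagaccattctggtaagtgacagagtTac
The promoter of Igll1 is a different sequence, shown with its matches because Igll1 and Vpreb1 moved together between libraries. The 250 bases before its start (GRCm38.p6, chr16:16863986-16864235, minus strand) read as follows, with capitals on matches to the letters CCCNNGGG of early B-cell factor (EBF) and to the E-boxes CAGCTG and CACCTG of E proteins.
Igll1, promoter: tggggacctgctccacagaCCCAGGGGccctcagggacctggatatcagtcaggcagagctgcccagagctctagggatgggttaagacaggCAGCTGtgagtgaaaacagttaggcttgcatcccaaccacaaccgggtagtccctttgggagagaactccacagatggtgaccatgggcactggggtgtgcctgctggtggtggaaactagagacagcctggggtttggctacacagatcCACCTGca
The search covered both strands of the 250 bases before the start, and of 32851 RefSeq promoters 11.8% held CCCNNGGG, 13.0% CAGCTG and 17.2% CACCTG. CCCNNGGG was found in the Igll1 promoter, from -231 to -224, and not in those of Vpreb1, Vpreb2, Vpreb3 or Cd79a. CAGCTG was found in Igll1 (-158 to -153) and Vpreb2 (-60 to -55), and CACCTG in Igll1 (-8 to -3), Vpreb1 (-88 to -83), Vpreb2 (-232 to -227) and Cd79a (-154 to -149). The Ikaros letters TGGGAA, present in 21.6% of promoters, matched Vpreb2 (-64 to -59), where they overlap its CAGCTG, and the MYC E-box CACGTG, present in 6.02%, matched none of these 5 promoters. Vpreb3 held no match, and Cd79b was not searched. RefSeq and GENCODE vM1 place some starts apart, so these windows are not equivalent. Matched to NCBIM37, the windows of Igll1 and Vpreb3 held no base of an exon of their gene, although that of Vpreb3 lies beyond its first exon. Those of Vpreb1, Vpreb2 and Cd79a held 190, 144 and 116 such bases. The CAGCTG and TGGGAA matches of Vpreb2 and the CACCTG match of Vpreb1 fall within these exons, as do 89 of the 106 aligned Vpreb1 bases, whose exon belongs to a putative noncoding transcript. A match is a description of letters and not a measured binding site.

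Total counts were between 30031100 and 53453055 per library, so that 3 counts corresponded to 0.0526 to 0.107 CPM (counts per 1e6 of the TMM-scaled library size). Myc, the transgene's product, checked the labels, with 33.7 and 41.4 CPM in wild type, 1164 and 1155 in premalignant and 1731 and 1577 in malignant cells. B-lineage identity genes were detected in every library, and 6 of these 8, among them Cd79a and Cd79b, fell in each comparison with wild type. Over all genes tested, 20.3% were called lower in premalignant and 24.3% in malignant vs. wild type cells. Calls needed an FDR up to 0.1 and a log2 fold change of 0.5 or more in size (edgeR). Without Cd79a and Cd79b the other 6 identity genes summed to 4557 to 4961 CPM in wild type, 3148 to 3159 in premalignant and 3101 to 3772 in malignant cells. Markers of other cells were highest in the wild type libraries. The 9 myeloid markers summed to 1045 to 2324, 315 to 341 and 78.7 to 148 CPM in the 3 stages, the 6 erythroid markers to 368 to 1185, 69.2 to 148 and 53.9 to 62.0 CPM, and the 8 T cell markers to 84.9 to 143, 24.8 to 44.5 and 13.3 to 79.9 CPM. The 5 plasmacytoid dendritic and NK markers summed to 194 to 388, 22.0 to 48.2 and 2.55 to 24.4 CPM, and the 5 plasma cell markers found, of 6 listed, to 755 to 859, 377 to 386 and 330 CPM. Most of the plasma cell sum was Irf4, which pre-B cells also express, and without it the sums were 152 to 175, 67.4 to 80.6 and 49.0 to 86.7 CPM. In malignant vs. wild type cells 9 of 9 myeloid, 5 of 6 erythroid, 5 of 8 T cell, 5 of 5 plasmacytoid dendritic and NK, and 3 of 5 plasma cell markers fell. None of these lists had a member that rose. Over all genes tested, 24.3% were called lower and 24.9% higher in this comparison. The part of these other cells in the results below was not tested.

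Igll1 encodes λ5, the part of the surrogate light chain that resembles a constant domain. Its level was 196.8 and 194.7 CPM in wild type replicates 1 and 2, 18.8 and 9.58 CPM in the premalignant replicates, and 0.167 and 7.56 CPM in the malignant replicates. The stages did not overlap, and malignant replicate 1 stood far below every other library, with 8 counts against 211 in malignant replicate 2. Its exact Poisson 95% interval, which like all such intervals here covers counting error only, was 0.0722 to 0.330 CPM. The malignant replicates thus differed 45.2-fold from each other, against 1.96-fold between the premalignant and 1.01-fold between the wild type replicates. Malignant replicate 2 was also the malignant library with more markers of other cells. In malignant replicates 1 and 2 the T cell markers summed to 13.3 and 79.9 CPM, the myeloid markers to 78.7 and 148 CPM, and the plasmacytoid dendritic and NK markers to 2.55 and 24.4 CPM. Most of these T cell and plasmacytoid dendritic and NK sums were Lck (11.9 and 64.03 CPM) and Siglech (1.67 and 21.9 CPM). Cd4 (0.125 and 2.40 CPM), Cd8a (0.230 and 6.45 CPM) and Thy1 (0.125 and 5.98 CPM) were also higher in malignant replicate 2. The T cell markers Cd3e (0.0418 and 0.107 CPM), Cd3g (0.105 and 0.251 CPM), Cd3d (0.711 and 0.681 CPM) and Trac (0.0627 and 0 CPM) were low in both. The part of these cells in the difference was not tested.

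Vpreb1 encodes the variable-like part that pairs with λ5. It was measured at 114 and 131 CPM in wild type, 9.73 and 4.88 CPM in premalignant and 0.146 and 4.05 CPM in malignant cells. The order of the 6 libraries was that of Igll1 except within wild type, and malignant replicate 1, with 7 counts, was again the lowest (95% interval 0.0588 to 0.302 CPM). Vpreb2, the copy of Vpreb1 in the other cluster, was at 12.3 and 16.9 CPM in wild type, 0.438 and 0.301 CPM in premalignant, and 0 and 0.287 CPM in malignant cells. Outside wild type Vpreb2 rested on 23, 10, 0 and 8 counts, and the count of 0 in malignant replicate 1 allows up to 0.0771 CPM (the upper limit of the same exact interval). Summed over Igll1, Vpreb1 and Vpreb2, the surrogate light chain amounted to 323.6 and 342.9 CPM in wild type, 28.9 and 14.8 CPM in premalignant, and 0.314 and 11.9 CPM in malignant cells. Malignant replicate 1 thus held 15 counts of these 3 genes together, where wild type replicate 1 held 18472. In bulk RNA, fewer cells that express a gene and less of its RNA per cell cannot be told apart.

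Vpreb3 encodes a VpreB-like protein that has been found with newly made immunoglobulin chains inside the cell. It behaved differently in scale, with 509 and 504 CPM in wild type, 231 and 237 CPM in premalignant and 249 and 315 CPM in malignant cells. Both later stages lay below wild type in every library, and both malignant libraries lay above both premalignant ones.

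Cd79a and Cd79b encode Igα and Igβ, the chains through which the pre-B receptor and later the B cell receptor signal. Cd79a was measured at 1103 and 1479 CPM in wild type, 801 and 866 CPM in premalignant and 732 and 833 CPM in malignant cells. Cd79b was measured at 1121 and 1297 CPM in wild type, 673 and 709 CPM in premalignant and 657 and 616 CPM in malignant cells. Both genes were lower in the 4 libraries with the transgene than in either wild type library. Between premalignant and malignant cells the levels of Cd79a overlapped, and those of Cd79b did not.

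**Figure D1:**
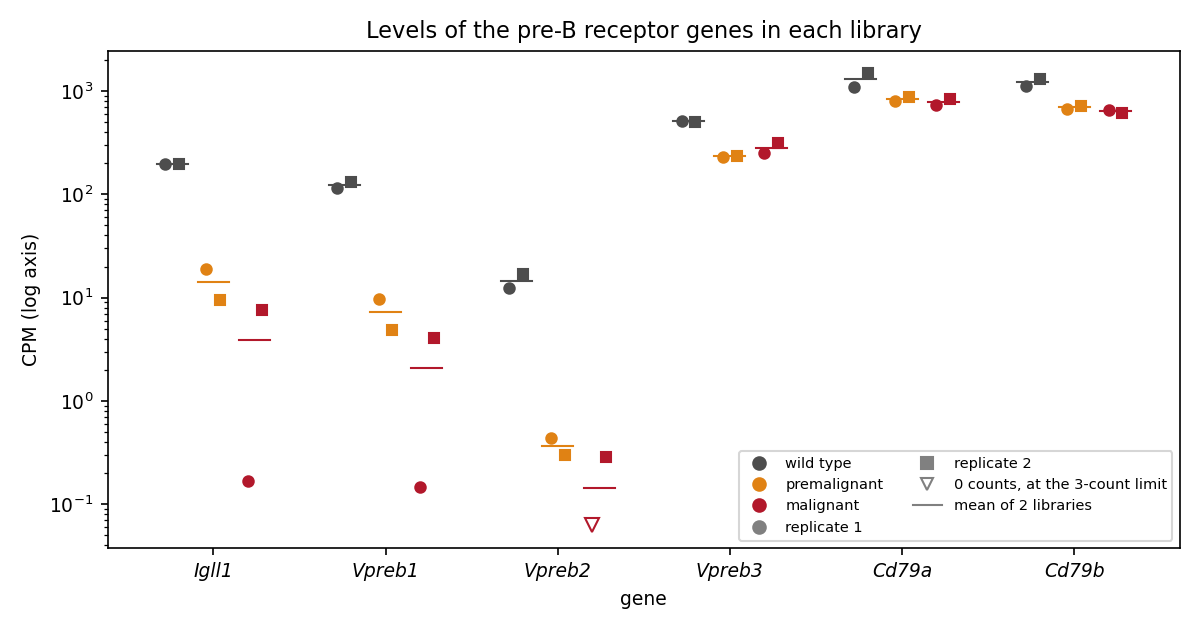
Level of each gene in CPM (log axis) in the 6 libraries, with stage by colour, replicate by marker shape and the mean of 2 libraries as a line. The open triangle is the malignant replicate 1 library with 0 counts of Vpreb2, drawn at the 3-count limit of 0.0627 CPM. The surrogate light chain genes are far lower after wild type and lie far apart between the malignant libraries (0.167 and 7.56 CPM for Igll1), while Vpreb3, Cd79a and Cd79b stay between 231 and 1479 CPM.

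Levels of different genes can be compared per exon length as RPKM (reads scaled by library size and by exon length in kilobases). The length counts all exon bases, but only 71.5%, 65.1% and 72.7% of the 50-base windows of Vpreb1, Vpreb2 and Cd79a occurred once. How reads with several positions were counted is not given, so the order of genes with close levels, such as Vpreb1 and Igll1, is uncertain. In wild type cells the order was Cd79a with 886 ± 183 RPKM (SD, n = 2 for each value here), Cd79b with 845 ± 86.7, Vpreb3 with 590 ± 3.50, Vpreb1 with 110 ± 10.8, Igll1 with 90.5 ± 0.699 and Vpreb2 with 19.1 ± 4.21 RPKM. Cd79a and Cd79b lay within each other's spread, whereas the 2 values of each other gene were apart from those of its neighbours. In malignant cells Cd79a (537 ± 49.2 RPKM), Cd79b (445 ± 20.4) and Vpreb3 (328 ± 54.3) kept this order. Vpreb1 (1.88 ± 2.48), Igll1 (1.79 ± 2.42) and Vpreb2 (0.187 ± 0.265) were lower, each with an SD above its mean. In premalignant cells Vpreb1 (6.56 ± 3.08) and Igll1 (6.55 ± 3.01) did not differ beyond their spread, and Vpreb2 was at 0.482 ± 0.126 RPKM, while Cd79a (572 ± 31.5), Cd79b (483 ± 17.8) and Vpreb3 (272 ± 5.47) kept their order.

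The comparison of premalignant with wild type cells asks what differs before lymphoma. All 6 genes fell, where 20.3% of all genes tested were called lower (edgeR's quasi-likelihood test, FDR up to 0.1 with a log2 fold change of 0.5 or more in size). Both premalignant libraries lay below both wild type libraries for all 6 genes, as for 41.2% of all genes tested. The mean CPM was 13.8-fold lower for Igll1, 16.8-fold for Vpreb1 and 39.5-fold for Vpreb2, but 2.17-fold for Vpreb3, 1.55-fold for Cd79a and 1.75-fold for Cd79b. The log2 fold change was -5.28 for Vpreb2 (SE 1.03, adjusted p = 0.0135), -4.06 for Vpreb1 (SE 1.08, adjusted p = 0.0336) and -3.78 for Igll1 (SE 1.20, adjusted p = 0.0569). Only 66 of 16683 genes had a lower log2 fold change than Vpreb2, 214 than Vpreb1 and 283 than Igll1. The smaller falls had smaller errors, with a log2 fold change of -1.12 for Vpreb3 (SE 0.16, adjusted p = 0.00522), -0.81 for Cd79b (SE 0.15, adjusted p = 0.0117) and -0.63 for Cd79a (SE 0.19, adjusted p = 0.0493).

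These calls rest on few libraries. Without wild type replicate 1, wild type replicate 2, premalignant replicate 1 or premalignant replicate 2 in turn, the adjusted p of Igll1 was 0.165, 0.186, 0.196 and 0.273, and that of Vpreb1 was 0.114, 0.149, 0.147 and 0.203, so that neither was called. Vpreb2 lost its call without premalignant replicate 1 (adjusted p = 0.109) or premalignant replicate 2 (0.121), as did Cd79b (0.135 and 0.125). Cd79a lost its call without either of these (0.273 and 0.228) and without wild type replicate 2 (0.24), and Vpreb3 kept its call throughout. The log2 fold change of Igll1 stayed between -4.35 and -3.37 in these 4 fits.

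Malignant cells were compared with wild type cells to ask what differs in lymphoma. All 6 genes fell again, where 24.3% of all genes were called lower, and both malignant libraries lay below both wild type libraries for all 6 genes, as for 36.4% of all genes. The mean CPM was 50.7-fold lower for Igll1, 58.6-fold for Vpreb1 and 102-fold for Vpreb2, against 1.80-fold for Vpreb3, 1.65-fold for Cd79a and 1.90-fold for Cd79b. The log2 fold change was -5.73 for Igll1 (SE 1.34, adjusted p = 0.0163), -5.97 for Vpreb1 (SE 1.20, adjusted p = 0.00999) and -6.88 for Vpreb2 (SE 1.16, adjusted p = 0.00549). A lower value was found for 226, 187 and 101 of the 16683 genes, respectively. Cd79b had a log2 fold change of -0.93 (SE 0.15, adjusted p = 0.00480), Vpreb3 of -0.85 (SE 0.16, adjusted p = 0.00727) and Cd79a of -0.72 (SE 0.19, adjusted p = 0.0245), and between 3867 and 4583 genes had a lower one. The call of Cd79a was lost without wild type replicate 2 (log2 fold change -0.49, adjusted p = 0.126). The size of the fall of the surrogate light chain genes depended on malignant replicate 1, and without 1 library at a time it was between -10.14 and -4.68 for Igll1, -9.66 and -4.91 for Vpreb1, and -12.34 and -5.65 for Vpreb2, always called.

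The comparison of malignant with premalignant cells asks what differs between the 2 transgenic stages, which also differ in age and sort. None of the 6 genes was called by edgeR, none had an unadjusted p under 0.05 and DESeq2 called 0 of the 6, where edgeR called 2.45% of all genes lower. Both malignant libraries lay below both premalignant ones for 4 of the 6 genes, namely the 3 surrogate light chain genes and Cd79b, as for 25.2% of all genes. The log2 fold change was -1.95 for Igll1 (95% interval -4.79 to 0.89, adjusted p = 0.424), -1.91 for Vpreb1 (-4.49 to 0.68, adjusted p = 0.389) and -1.60 for Vpreb2 (-4.32 to 1.12, adjusted p = 0.496). These intervals were wide and held 0, beside malignant replicates that lay 45.2-fold apart for Igll1. Those of the other genes were narrower, at -0.10 to 0.64 for Vpreb3, -0.55 to 0.37 for Cd79a and -0.48 to 0.24 for Cd79b. Without malignant replicate 2 the fit compared malignant replicate 1 alone, taken to vary like the other stages, and Igll1 (-6.43, adjusted p = 0.00128), Vpreb1 (-5.67, adjusted p = 0.00225) and Vpreb2 (-7.14, adjusted p = 0.00756) were called. Without malignant replicate 1 none of the 6 genes was called.

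**Figure D2:**
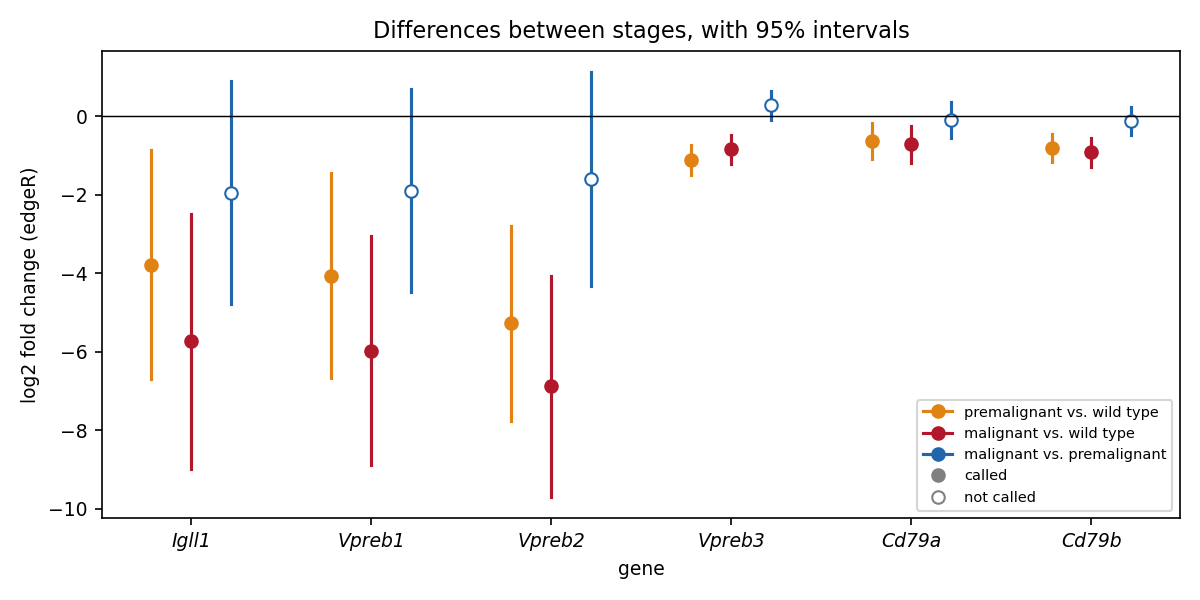
Log2 fold change of each gene (y axis) in 3 comparisons (colours), with 95% intervals derived from the edgeR test as bars. Filled points were called and open points were not. The 3 surrogate light chain genes show log2 fold changes from -3.78 to -6.88 against wild type with wide intervals, the other genes -0.63 to -1.12 with narrow ones, and every interval of malignant vs. premalignant includes 0.

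Ratios of counts within a library do not depend on how libraries are scaled. Igll1 and Vpreb1 kept a similar ratio while their levels fell. Igll1 held 1.72 and 1.48 counts per count of Vpreb1 in wild type, 1.93 and 1.96 in premalignant and 1.14 and 1.87 in malignant cells, and the value of malignant replicate 1 has a 95% interval of 0.362 to 3.70. Vpreb1 relative to Vpreb2 lay above its wild type values in each other library that gave one, at 9.28 and 7.78 in wild type, 22.2 and 16.2 in premalignant and 14.1 in malignant replicate 2, subject to the uncertain split of their reads. The 95% counting intervals were 14.6 to 35.4 and 8.59 to 34.4 in premalignant replicates 1 and 2, and 6.93 to 33.5 in malignant replicate 2. That of malignant replicate 2 held both wild type values, and that of premalignant replicate 2 held the higher of them. Cd79a and Cd79b stayed near parity in counts, with ratios of 0.983 and 1.14 in wild type, 1.19 and 1.22 in premalignant and 1.11 and 1.35 in malignant cells. The size of this ratio depends on how reads from the 331 windows of Cd79a that also occur on chromosome 12 were counted. The 2 arms of the receptor separated. Igll1 relative to Cd79a went from 0.179 and 0.132 in wild type to 0.0234 and 0.0111 in premalignant and 0.000229 and 0.00907 in malignant cells. The mean log2 ratio of Igll1 to Cd79a differed by -3.25 in premalignant and by -6.73 in malignant cells from wild type, and by -3.48 between malignant and premalignant cells. Without malignant replicate 1 these last 2 differences were -4.08 and -0.83, and without malignant replicate 2 they were -9.39 and -6.14. Each of the 3 differences over all libraries had an exact permutation p of 0.333 (two-sided), the smallest that 2 against 2 libraries can give.

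**Figure D3:**
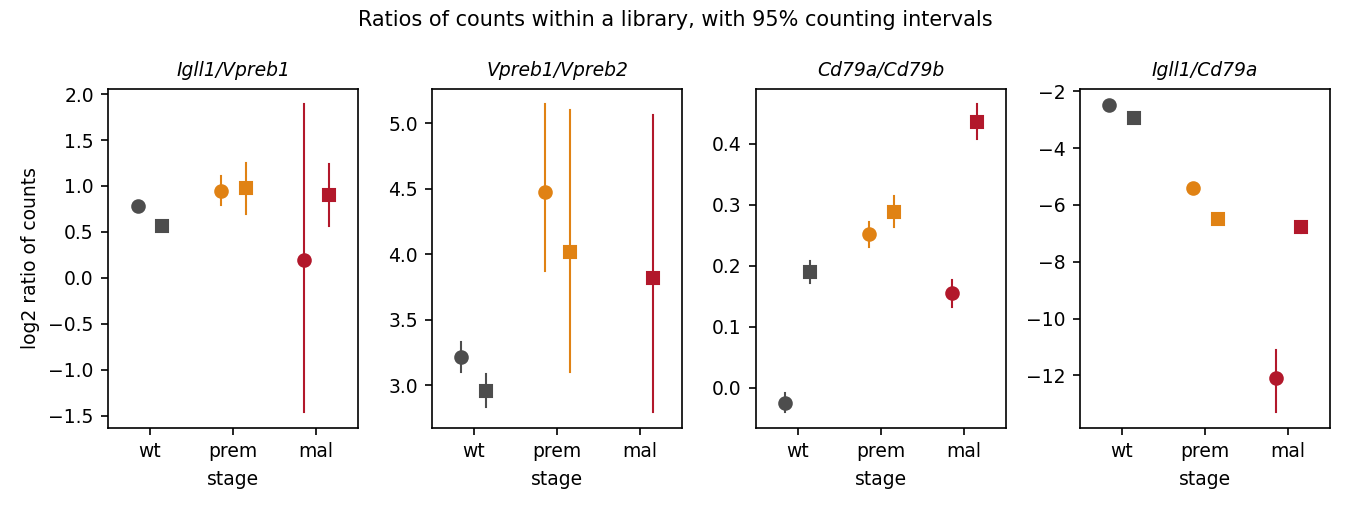
Log2 ratio of counts of 2 genes in each library (y axis, a scale for each panel) by stage (wt, wild type; prem, premalignant; mal, malignant), with circles for replicate 1, squares for replicate 2 and 95% counting intervals as bars. Igll1 to Vpreb1 and Cd79a to Cd79b change little, while Igll1 to Cd79a falls from ratios of 0.179 and 0.132 in wild type to 0.000229 in malignant replicate 1; Vpreb1 to Vpreb2 has no value there because Vpreb2 had 0 counts.

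Genes whose centred log2 profile over the 6 libraries was most like that of each gene were sought among 8876 genes with a mean of at least 10 CPM (8877 for Vpreb2), by root mean square distance in log2 units. With only 6 libraries in 3 stages this is a description. For Igll1 they were Dntt (distance 0.266), which encodes the terminal transferase that adds N nucleotides at V(D)J joints, Gpr56 (0.292), an adhesion receptor, and Vpreb1 (0.295). Dntt was at 264 and 220 CPM in wild type, 21.2 and 10.8 CPM in premalignant and 0.105 and 6.70 CPM in malignant cells, with the same low malignant replicate 1 and the same order within each stage as Igll1. For Vpreb1 they were Erg (0.184), an ETS transcription factor of early haematopoietic cells, Gpr56 (0.211) and the calcium channel subunit gene Cacna2d1 (0.22). Erg was at 55.2 and 61.0, 3.69 and 2.62, and 0.0418 and 1.93 CPM. In malignant replicate 1 Erg was below the 3-count limit of 0.0627 CPM, and Cacna2d1 was at 0 CPM. The likeness to Vpreb1 in that library therefore rests on values near or below this limit, with 0.1 CPM added before the log. For Vpreb2 the nearest profiles were further away, at 0.417 for the kappa V gene Igkv1-135, 0.613 for Il2ra and 0.653 for Adam11. Il2ra encodes CD25, the surface marker of small pre-B cells, and was at 212 and 225 CPM in wild type, 13.1 and 9.61 in premalignant and 5.06 and 7.31 in malignant cells. The genes nearest to Vpreb3 were Sec11c (0.0519), a subunit of the signal peptidase, Cd47, a surface protein that inhibits phagocytosis, and Tap1, a peptide transporter. Those nearest to Cd79a were Cux1 (0.0518), a homeobox factor, Rgp1 and Snx30, and those nearest to Cd79b were Zer1 (0.0477), Zfyve1 and 4933407C03Rik.

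**Figure D4:**
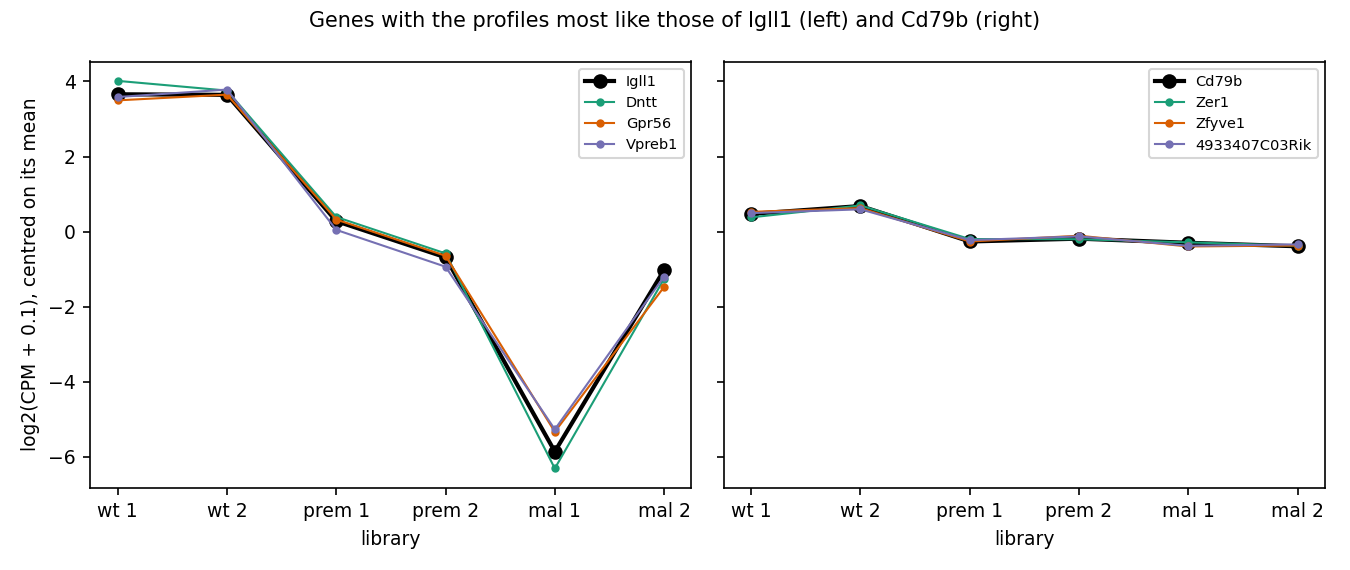
Centred log2(CPM + 0.1) of Igll1 (left) and Cd79b (right) in the 6 libraries (wt, wild type; prem, premalignant; mal, malignant), each with the 3 genes of the nearest profile. Igll1, Dntt, Gpr56 and Vpreb1 dip together in malignant replicate 1, where Igll1 was at 0.167 CPM and Dntt at 0.105 CPM, while Cd79b and its nearest profiles step down once after wild type.

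Of 8 markers of pro-B and large pre-B cells, the stages at which the surrogate light chain is made, 6 fell in premalignant and 6 in malignant cells relative to wild type, none rose, and 1 fell between malignant and premalignant cells. Their summed level was 1519 to 1693 CPM in wild type, 364 to 393 CPM in premalignant and 256.03 to 447 CPM in malignant cells. Besides Dntt and Erg, the malignant log2 fold change was -5.35 for Kit, the stem cell factor receptor (SE 0.68, adjusted p = 0.00218), and -3.65 for Il7r, the receptor for interleukin-7 (SE 0.27, adjusted p = 0.000656). Spn, which encodes CD43, was not called (-0.23, adjusted p = 0.497). Of 8 small pre-B markers 7 fell in premalignant cells, and in malignant cells 5 fell and 2 rose. Over all genes tested, 20.3% were called lower and 19% higher in premalignant vs. wild type cells. In malignant vs. wild type cells these shares were 24.3% and 24.9%, and in malignant vs. premalignant cells 2.45% were called lower. The small pre-B markers that rose were Cd2 (0.94) and Cd22 (0.90), and Cxcr4 was not called (-0.77, adjusted p = 0.170). Rag1, of the V(D)J recombinase, was at 154 and 56.7 CPM in malignant replicates 1 and 2, the reverse of the order of Igll1. The small pre-B markers were split in this respect. Rag2, Cd2, Rhoh and Cxcr4 were also higher in malignant replicate 1. Il2ra (5.06 and 7.31 CPM), Cd72 (98.6 and 109 CPM) and Cd22 (336 and 381 CPM) were higher in malignant replicate 2, as was Igll1. The part of a shift in cell stage was not tested.

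Transcription factors that act on the surrogate light chain genes or in the same cells were described as a list of 14. In malignant vs. wild type cells 12 fell, 1 rose and 1 was not called, with a median log2 fold change of -1.52 beside -0.02 over all genes tested. In premalignant vs. wild type cells 8 fell and 1 rose (median -1.005 beside -0.08), and in malignant vs. premalignant cells 2 fell and none rose (median -0.40 beside 0.04). The shares of all genes tested called lower and higher were 24.3% and 24.9% in malignant vs. wild type cells. They were 20.3% and 19% in premalignant vs. wild type cells, and 2.45% and 3.73% in malignant vs. premalignant cells. Ebf1, which encodes a factor that activates Igll1 and Vpreb1 transcription, was at 527 and 537 CPM in wild type, 204 and 194 CPM in premalignant and 160 and 123 CPM in malignant cells. Ebf1 had a log2 fold change of -1.91 in malignant (SE 0.17, adjusted p = 0.000880) and -1.42 in premalignant cells (SE 0.17, adjusted p = 0.00330). Tcf3, which encodes the E proteins E12 and E47, fell by less, with -0.51 in malignant cells (SE 0.18, adjusted p = 0.0565).

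The largest falls of the list in malignant vs. wild type cells were those of Id2, an inhibitor of E proteins (-4.32, SE 0.40), and Lef1, a Wnt pathway factor (-4.30, SE 0.92). Sox4 (-2.996, SE 0.48), a factor needed for early B cells, and Bach2 (-2.48, SE 0.22), a repressor active at the pre-B receptor checkpoint, followed. Sox4 (-2.30, adjusted p = 0.0673) and Bach2 (-1.24, adjusted p = 0.0456) also fell between malignant and premalignant cells. Sox4 was at 183 and 262 CPM in wild type, 137 and 138 CPM in premalignant and 14.7 and 41.3 CPM in malignant cells. In premalignant cells Id2 (-3.27), Foxo1 (-1.87), Ebf1, Bach2 (-1.24) and Irf4 (-1.06) fell furthest. Foxo1 is a factor of pre-B cell differentiation that acts on the Rag genes, and Irf4 is one that acts in ending surrogate light chain expression. Id3, another inhibitor of E proteins, rose by 0.87 in malignant cells (SE 0.25, adjusted p = 0.0306) and by 0.78 in premalignant cells (SE 0.24, adjusted p = 0.0550).

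Of 23 genes for pre-B receptor signalling 22 were tested, and Syk was not analysed here. In premalignant vs. wild type cells 13 fell, none rose and 9 were not called, with a median log2 fold change of -0.71. In malignant vs. wild type cells 12 fell, 2 rose and 8 were not called (median -0.55), and in malignant vs. premalignant cells 2 fell, 3 rose and 17 were not called (median -0.14). Over all genes tested the medians were -0.08, -0.02 and 0.04, the shares called lower those given above, and the shares called higher 19%, 24.9% and 3.73%, in the same order of comparisons. The adaptor gene Blnk, which links the receptor's kinases to downstream enzymes, was at 461 and 491 CPM in wild type, 240 and 217 CPM in premalignant and 178 and 198 CPM in malignant cells, a log2 fold change of -1.34 in malignant cells (SE 0.14, adjusted p = 0.00123). Rasgrp3, an activator of Ras, fell furthest, with -5.29 in malignant (SE 0.34) and -3.26 in premalignant cells (SE 0.30), from 16.9 and 17.5 CPM in wild type to 0.439 and 0.430 CPM in malignant cells. Pik3ap1, the BCAP adaptor of PI3-kinase, fell by 2.87 on the log2 scale in malignant cells (SE 0.20) and by 1.73 in premalignant cells (SE 0.19). Both also fell between malignant and premalignant cells (-2.03, adjusted p = 0.0351, and -1.14, adjusted p = 0.0408). Unlike the surrogate light chain genes, Rasgrp3 and Pik3ap1 had similar levels in both malignant libraries, Pik3ap1 at 101 and 75.0 CPM.

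Other falls of the list were those of Dok3, an inhibitory adaptor (-1.52 in malignant and -1.30 in premalignant cells), and of Pik3cd, a PI3-kinase catalytic subunit (-1.36 in malignant cells). In premalignant cells the Src-family kinase gene Fyn (-1.86, adjusted p = 0.0143) and Zap70, a relative of Syk (-1.44, adjusted p = 0.0931), fell as well. Among the genes that rose in malignant vs. wild type cells was Lat2, an adaptor (1.49, SE 0.30, adjusted p = 0.00998). Lat2 (1.91, adjusted p = 0.0370) and Malt1, a paracaspase (0.73, adjusted p = 0.0864), were among those that rose between malignant and premalignant cells. Btk (0.15, adjusted p = 0.390) and Plcg2 (0.04, adjusted p = 0.892), the kinase and phospholipase downstream of Blnk, were not called in malignant vs. wild type cells.

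The genes beside each receptor gene were counted as well. Within 100 kb of Igll1 and of Vpreb1, 3 other genes were tested for each, and besides Igll1 or Vpreb1 itself they were Top3b and Ppm1f. Top3b was at 92.1 and 109 CPM in wild type, 74.5 and 69.5 in premalignant and 49.5 and 82.6 in malignant cells, with a log2 fold change of -0.61 in malignant (adjusted p = 0.0962) and -0.49 in premalignant cells (adjusted p = 0.188). Ppm1f, a protein phosphatase gene, rose from 42.6 and 45.0 CPM in wild type to 88.5 and 100.6 CPM in premalignant and 93.0 and 176 CPM in malignant cells (log2 fold change 1.11, adjusted p = 0.0335, and 1.62, adjusted p = 0.00726). Around Vpreb2, of 7 genes tested 1 fell and 2 rose in malignant vs. wild type cells. Around Vpreb3 these numbers were 10, 2 and 2, around Cd79a 5, 2 and 2, and around Cd79b 11, 3 and 3. These are small numbers beside 24.3% called lower and 24.9% called higher over all genes, and nothing particular to the neighbours is read from them.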

How the data were processed

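Pre-B cells sorted from bone marrow at the 3 stages were profiled by polyA RNA-seq (TruSeq, 50-bp single-end reads), with 2 libraries per stage, each from an individual animal. The authors aligned reads with TopHat and deposited raw HTSeq counts per Ensembl gene without normalization. The submitters' processing notes name mm9, CASAVA 1.8.2, Bowtie, HTSeq and DESeq, and the counting options and annotation are not given in the sources used here. Tables of the authors' own DEseq comparisons, with fold changes and p-values, were not used.

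Stages and replicate numbers came from the labels. Symbols, coordinates and exon lengths came from GENCODE vM1 (NCBIM37), which named 37205 of 37991 identifiers. Symbols with several identifiers were read as the one with most counts. Counts were tested with edgeR 4.0.16 (R 4.3.3; TMM, default filter on low counts, quasi-likelihood test, all 6 libraries in one fit, Benjamini-Hochberg adjustment over 16683 genes). Genes were called at FDR ≤ 0.1 with a log2 fold change of 0.5 or more in size, as in the study. DESeq2 1.42.0, other scalings, filters and thresholds, a replicate block, fits of 2 stages and leaving out each library were alternatives. CPM used TMM-scaled library sizes, and RPKM also exon lengths. TMM takes most genes as unchanged. Promoters are RefSeq's of GRCm38.p6, found for 5 of the 6 genes.

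The genes named were the 6 receptor genes, Myc, the 5 largest called falls and rises of the signalling and regulator lists in each comparison, and the 3 nearest profiles per gene, and 1 gene under this rule is not reported here. Marker and neighbouring genes, and Tcf3, Btk and Plcg2, were named in addition after their values were seen. Genes and lists were chosen with earlier results of these data known.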

Additional observations from a re-analysis of the deposited data

How the results depend on the processing

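The number of genes called was 8212 for malignant vs. wild type, 6563 for premalignant vs. wild type and 1031 for malignant vs. premalignant cells. Requiring a log2 fold change of 1 or more in size gave 4282 genes for premalignant vs. wild type and left 3 of the 6 receptor genes called in malignant vs. wild type, the surrogate light chain genes. Requiring at least 10 counts in every library left 3 of the 6 to test, since malignant replicate 1 held 8, 7 and 0 counts of Igll1, Vpreb1 and Vpreb2, and all 3 were called in both comparisons with wild type. For malignant vs. premalignant an FDR of 0.05 gave 407 genes, DESeq2 2169, no filter on low counts 2810 and a fit of only the 2 stages 258. Without the filter 3 receptor genes were called there (Igll1 adjusted p = 5.27e-16, Vpreb1 2.50e-12, Vpreb2 0.0578), and the cause was not tested. Leaving out 1 library at a time gave 5945 to 9200 genes for malignant vs. wild type, 2094 to 8455 for premalignant vs. wild type and 0 to 3805 for malignant vs. premalignant. The receptor genes called were then 5 to 6, 1 to 6 and 0 to 3, and the fewest for premalignant vs. wild type, 1, came without premalignant replicate 1 or 2. The sign of the fold change was reversed for none of the 6 genes in any of these settings. Of the combinations of gene, comparison and setting, 254 kept their side of the threshold, 22 lost the call and 6 gained it. On total counts instead of TMM, the mean CPM in wild type was 219.95 for Igll1, 138 for Vpreb1, 569 for Vpreb3 and 1359 for Cd79b, that of Vpreb3 in premalignant 227 and that of Cd79b in malignant cells 583. Upper-quartile scaling shifted the all-gene median in malignant vs. wild type by -0.17 on the log2 scale and kept the calls of all 6 genes.

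With the replicate number as a block, 8224, 6575 and 940 genes were called and 6, 6 and 0 of the receptor genes, so the block changed no call of these. After subtraction of stage means, libraries with the same number correlated by 0.509 for wild type and premalignant, 0.186 for wild type and malignant and 0.257 for premalignant and malignant libraries. The number is shared in the labels only, with 2 numbers, and replicate 1 libraries were also the deeper ones, so a pairing was not established. Depth limits Vpreb2 in particular, with 0 to 23 counts outside wild type. The mean log2 ratio of Igll1 to Cd79a, without 1 library at a time (chosen after seeing the data, as were the sums without Cd79a and Cd79b or without Irf4), differed by -9.39 to -4.08 in malignant vs. wild type, -3.79 to -2.71 in premalignant vs. wild type and -6.14 to -0.83 in malignant vs. premalignant cells. Vpreb1 and Vpreb2 summed gave log2 fold changes of -6.03, -4.15 and -1.88 in the 3 comparisons.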

Other observations

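Markers of immature and mature B cells changed in both directions. Of the 11 found of 12 listed, 6 fell and 4 rose in malignant vs. wild type cells. In premalignant vs. wild type cells 4 fell and 3 rose, and none was called by edgeR in malignant vs. premalignant cells. Over all genes tested, 24.3%, 20.3% and 2.45% were called lower in these 3 comparisons, and 24.9%, 19% and 3.73% higher. Nothing particular to this list is read from these counts. The rises in malignant cells were those of Cd74, the invariant chain of MHC class II (log2 fold change 2.44, adjusted p = 0.00404), H2-Aa (2.23, adjusted p = 0.00551) and H2-Ab1 (1.88, adjusted p = 0.00843), which encode MHC class II chains, and Cd55 (0.86, adjusted p = 0.0997). Cd74 was at 286 and 338 CPM in wild type, 848 and 876 CPM in premalignant and 1053 and 2345 CPM in malignant cells. Malignant replicate 2, the malignant library with the more surrogate light chain RNA, was also the one with the more Cd74. The falls in malignant cells were those of Ltb (-3.87), Fcer2a (-2.997), Cr2 (-2.01), Ly6d (-1.33), Ms4a1 (-1.31) and Cd37 (-0.86), with adjusted p between 0.00711 and 0.0740. Fcer2a and Cr2, which encode receptors of mature B cells, were at 0.358 to 0.376 and 0.358 to 0.439 CPM in malignant cells.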
